A study of Homo sapiens with 6 samples.

Results

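Class II molecules of the major histocompatibility complex (MHC) were examined at the level of transcripts in MV4;11 cells, an established human leukemia line with a rearranged MLL gene (KMT2A). The set consisted of 10 genes: the alpha and beta chains HLA-DRA, HLA-DRB1, HLA-DPA1, HLA-DPB1, HLA-DQA1 and HLA-DQB1, the peptide editor chains HLA-DMA and HLA-DMB, the editor inhibitor chain HLA-DOA, and the invariant chain CD74. Every probe set whose platform annotation listed at least 1 of these symbols was taken, including probe sets shared with other HLA genes. The 10 genes, of 18239 with a probe set of their own, had 56 of the 49386 probe sets of the array. Cells had received 4 µM MI-389, a compound that blocks the binding of menin to MLL, or its solvent DMSO for 6 days. Both groups contained 0.25% DMSO, and medium and compound were renewed on day 3 with the cells brought back to their starting density. Each group held 3 arrays, and labelling started at the 3-prime end of each RNA. The labels call them biological replicates without saying how the cultures were separated, so the spread behind each p-value is that of these samples and may be technical. In such bulk samples, a change in the share of cells that carry a transcript and a change in the amount per cell cannot be told apart.

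Class II molecules present peptides from endosomes and lysosomes to CD4 T cells, and are characteristic of B cells, dendritic cells, monocytes and macrophages. An alpha and a beta chain pair in the endoplasmic reticulum with the invariant chain CD74, which blocks the peptide groove and directs the complex to endosomes. There the invariant chain is degraded to a short fragment, HLA-DM exchanges this fragment for peptides, and HLA-DO restrains HLA-DM. Transcription of these genes depends on the coactivator CIITA, which is recruited by RFX, CREB and NF-Y proteins bound to the conserved X and Y boxes of the promoters.

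The deposited values are on the log2 scale, with array medians from 4.47 to 4.49. Within a group, r across probe sets (which are not independent replicates) was 0.997 to 0.998. Background was gauged with 23 controls of nonspecific sequence. Without the control with the highest mean, which reached 7.87, their highest value was 5.49, called the nonspecific level below. The classes and the folds given as "at least" below depend on this choice. Some controls differed between the groups: the 9 hybridisation spike-ins were 0.25 higher on the MI-389 arrays (log2), and the 3-prime minus 5-prime difference was higher there by 0.14 for GAPDH and by 0.34 for ACTB. Each of these differences had no overlap between groups, with an exact two-sided permutation p of 0.1, the smallest that 3 against 3 arrays allow. Their part in the changes below was not tested. Levels of different probe sets are not comparable with each other, and RMA values near the nonspecific level understate changes.

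Of the 56 probe sets, 36 rose with MI-389 and 0 fell at an adjusted p under 0.05 (limma, Benjamini-Hochberg over all 49293 probe sets other than controls). Across the array, 14.0% of probe sets rose and 14.0% fell by the same rule, 28.0% in all. The median log2 change of the 56 was 0.59, against 0.014 for all probe sets. A rise of at least 2-fold was seen for 26 of the 56, against 1.56% of all probe sets. The 3 MI-389 arrays lay above the 3 DMSO arrays for 39 of the 56, against 21.3% on the array. With arrays centred on the spike-ins, which lowered the median change of all probe sets from 0.014 to -0.24, 29 members were higher and 10 lower. Over all probe sets, 2901 were then higher and 30190 lower. All 10 members had both groups at or below the nonspecific level, and so had 9 of the 36 that rose as deposited. Neither these falls nor these rises are read as a change of a transcript.

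The calls are described by how bright a probe set was. For 14 probe sets both group means exceeded the nonspecific level, and all 14 rose as deposited. Another 13 exceeded it with MI-389 alone, and all 13 rose. Among the remaining 29, with both means at or below that level, 9 rose and 20 were not called. Over the whole array the shares that rose in the same 3 classes were 25.7%, 78.3% (of 806 above the level with MI-389 alone) and 5.89%. A probe set above the level with MI-389 alone had to be higher there, so its count is given as a description. Of the 36 that rose, 31 stayed called higher under the omission of each single array in turn, among them the 27 with a mean above the level.

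**Figure D1:**
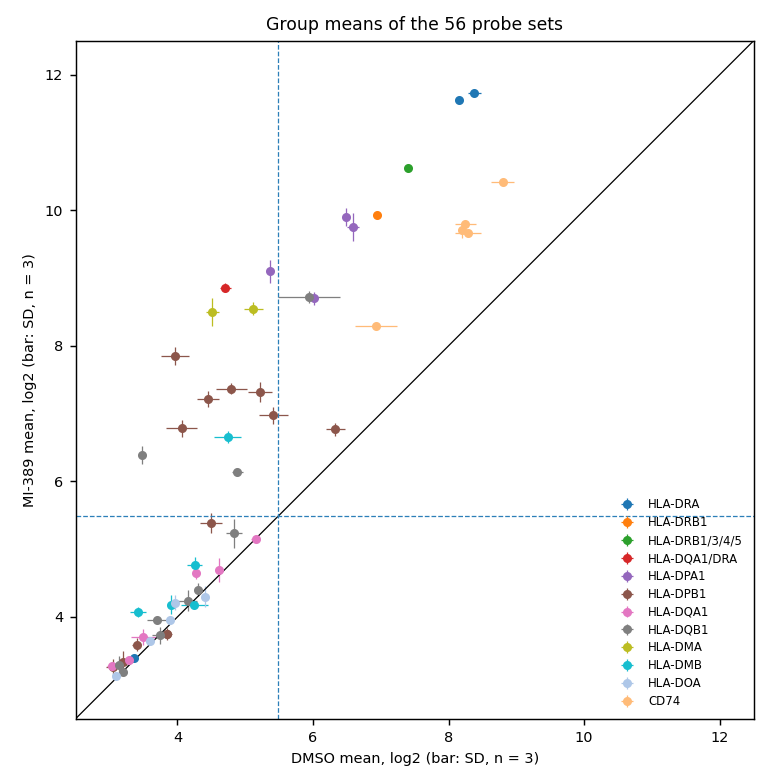
Mean log2 value with MI-389 (vertical axis) against DMSO (horizontal axis) for each of the 56 probe sets, coloured by gene; bars are the SD of 3 arrays, the solid line marks equal levels and the dashed lines the nonspecific level of 5.49. The 14 points right of and above both dashed lines lie above the diagonal, and most points below the horizontal dashed line lie close to it.

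The promoters of several members carry the boxes that these genes share. Shown are the 4 members with the X-box core, each of which rose above the nonspecific level on at least 1 probe set. Beside them are HLA-DOA and HLA-DQA1, whose own probe sets stayed at or below it. The probe set shared by HLA-DQA1 and HLA-DRA rose above it, and which gene it read cannot be told. HLA-DPB1, CD74 and HLA-DPA1 also rose above that level, had no X-box core in their windows, and are not printed. Whether the boxes relate to the rise was not tested. The stretches come from the RefSeq promoter windows of GRCh38.p14, which span 250 bases before to 50 bases after each gene start. A window was held for 9 of the 10 genes, with 2 for HLA-DPA1, while HLA-DRA had none in that table. Capitals mark an X-box core, searched as AGNNAC followed directly by NGNTG, and a Y-box core, searched as ATTGG, the inverse of the CCAAT motif. Each line reads 5′ to 3′ on the strand of the gene.
HLA-DRB1, chr6:32589882-32589939, minus strand: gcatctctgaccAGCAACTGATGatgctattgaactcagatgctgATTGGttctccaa
HLA-DQB1, chr6:32666733-32666790, minus strand: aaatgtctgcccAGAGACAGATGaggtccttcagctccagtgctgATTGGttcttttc
HLA-DMA, chr6:32953164-32953221, minus strand: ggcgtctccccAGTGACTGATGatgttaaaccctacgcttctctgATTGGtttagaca
HLA-DMB, chr6:32941071-32941128, minus strand: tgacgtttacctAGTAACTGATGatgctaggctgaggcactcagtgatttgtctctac
HLA-DOA, chr6:33009646-33009703, minus strand: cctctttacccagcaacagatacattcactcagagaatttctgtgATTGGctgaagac
HLA-DQA1, chr6:32637293-32637350, plus strand: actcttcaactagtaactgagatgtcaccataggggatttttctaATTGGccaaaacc

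In HLA-DRB1 the X-box core began 79 bases before the gene start and the Y-box core 33 bases further on. The same spacing of 33 bases was found in HLA-DQB1, whose X-box core began 121 bases before the start, and a spacing of 34 bases in HLA-DMA. HLA-DMB had the X-box core without the Y-box letters on the gene's strand, and HLA-DOA, HLA-DQA1 and HLA-DPB1 the Y-box core without the X-box letters. The windows of CD74 and HLA-DPA1 held neither on the gene's strand. On either strand, 4.00% of all 35116 windows held the X-box core and 34.6% the Y-box core. A Y-box core 30 to 37 bases after an X-box core on the same strand was found in 14 windows (0.0399%), among them those of 3 members, of HLA-DRB5 and of the class I-like gene MR1. The letters and the spacing were chosen with the members' windows in view. A match describes letters of the reference genome and not binding, and the cells' own alleles were not read.

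HLA-DR is the class II molecule formed by the HLA-DRA alpha chain and a DRB beta chain. Among the members, all but 1 of its probe sets rose. HLA-DRA (chr6:32439887-32445046, GRCh38.p14) read 8.15, 8.16 and 8.14 on the DMSO arrays and 11.61, 11.65 and 11.62 on the MI-389 arrays with 11742850_x_at. The groups lay far apart relative to their spread, an 11.1-fold rise (log2 change 3.48, SE 0.05, limma adjusted p = 1.28e-10). The second probe set, 11744484_s_at, read 8.50, 8.34 and 8.30 with DMSO and 11.68, 11.73 and 11.76 with MI-389, a 10.1-fold rise. The third, 11760773_at, stayed between 3.32 and 3.42 on all arrays, below the nonspecific level, with overlapping groups and a change of 0.03 (95% interval -0.10 to 0.16). Its change differed from that of 11744484_s_at by -3.31, without overlap between arrays (exact permutation p = 0.1).

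The DRB beta chains were read by probe sets annotated to 1 DRB gene and by others shared between them. HLA-DRB1 (chr6:32578775-32589848) read 6.89, 6.94 and 7.01 with DMSO and 9.90, 9.96 and 9.94 with MI-389 on 11759642_x_at, a 7.90-fold rise (log2 change 2.98, SE 0.06). The probe set annotated to HLA-DRB1, HLA-DRB3, HLA-DRB4 and HLA-DRB5 together, 11723194_x_at, read 7.36, 7.41 and 7.42 with DMSO and 10.62, 10.69 and 10.56 with MI-389. This was a 9.34-fold rise, and which of the 4 genes it reflects cannot be told from the array. DRB genes differ in number between chromosomes of different haplotypes. Outside the member set, the probe set of HLA-DRB3 and HLA-DRB5 rose by 2.98 and that of HLA-DRB5 by 1.10, while that of HLA-DRB4 changed by 0.29 with both groups at or below the nonspecific level (adjusted p = 0.0512). The names of these paralogues are therefore uncertain on this array.

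**Figure D2:**
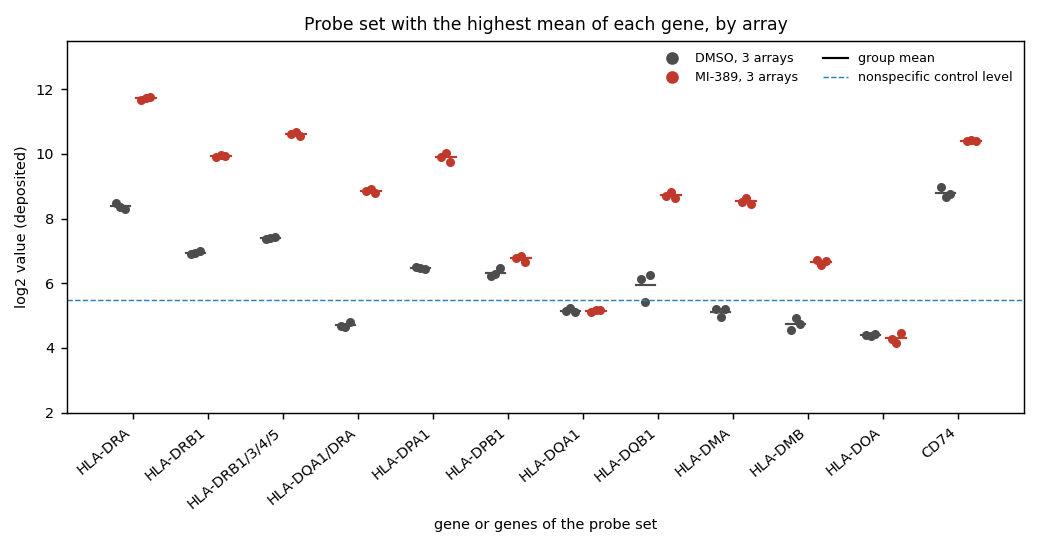
Deposited log2 values (vertical axis) on the 3 DMSO and 3 MI-389 arrays for the probe set with the highest mean of each gene or gene combination; short lines are group means and the dashed line is the nonspecific level of 5.49. The arrays of HLA-DRA, HLA-DRB1 and CD74 separate above the dashed line, while those of HLA-DQA1 and HLA-DOA overlap below it; heights of different probe sets are not comparable.

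HLA-DP rose on both chains. All 4 probe sets of HLA-DPA1 (chr6:33064569-33080748) rose, by 2.69 to 3.73 on the log2 scale. The other 3 differed in their change from 11715583_s_at, which had the highest mean, by -0.73, -0.25 and 0.31, without overlap between arrays (exact permutation p = 0.1 each). On 11715583_s_at the DMSO arrays read 6.52, 6.48 and 6.45 and the MI-389 arrays 9.89, 10.04 and 9.76, a 10.7-fold rise. On 11758417_s_at the values went from 5.41, 5.36 and 5.34 to 9.11, 9.26 and 8.92. There the DMSO mean lay under the nonspecific level, so the rise is given as at least 12.2-fold, with that level in place of any lower DMSO value, as for all folds given as "at least".

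HLA-DPB1 (chr6:33075990-33089696), which encodes the beta chain, had 13 probe sets, of which 8 rose and 5 were not called. The largest change was on 11758369_x_at, from 4.19, 3.89 and 3.80 with DMSO to 7.80, 7.99 and 7.74 with MI-389, at least 5.12-fold (log2 change 3.88, SE 0.11). Changes of 2.76, 2.72, 2.57, 2.11 and 1.56 were seen on another 5 probe sets that passed the nonspecific level with MI-389 alone, and of 0.89 on 1 whose means stayed below it. The probe set with the highest mean, 11758771_at, rose by only 0.44 (SE 0.08), from 6.22, 6.28 and 6.49 to 6.79, 6.85 and 6.66. The other 7 that rose changed by 0.45 to 3.44 more than it did, without overlap between arrays in any of them (exact permutation p = 0.1 each). The 5 that were not called changed by -0.10 to 0.22 and had all values below 4.

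HLA-DQ was read by probe sets of HLA-DQA1 or HLA-DQB1 alone and by 1 shared with HLA-DRA. None of the 6 probe sets of HLA-DQA1 (chr6:32637406-32655272) exceeded the nonspecific level in either group, and their changes ran from -0.0024 to 0.37. The 2 that rose, 11724799_x_at by 0.37 and 11760728_x_at by 0.23, did so at that low level. On 11753898_x_at, with the highest mean, the arrays read 5.14, 5.22 and 5.10 with DMSO and 5.10, 5.18 and 5.18 with MI-389, with full overlap (95% interval of the change -0.14 to 0.13).

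The probe set annotated to both HLA-DQA1 and HLA-DRA, 11750527_s_at, had the largest change of the 56 and ranked 21 of 49293 on the array. It read 4.69, 4.64 and 4.80 with DMSO and 8.87, 8.92 and 8.79 with MI-389, at least 10.4-fold higher (log2 change 4.15, SE 0.07, limma adjusted p = 1.46e-10). HLA-DRA rose on 2 probe sets of its own, and no HLA-DQA1 probe set rose by more than 0.37. The array does not tell which of the 2 genes this probe set read.

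HLA-DQB1 (chr6:32659467-32666657), the beta chain, rose on 5 of 10 probe sets. On 11746804_x_at the DMSO arrays read 6.14, 5.41 and 6.26, with replicate 2 low, and the MI-389 arrays 8.70, 8.81 and 8.64. The groups did not overlap, and the rise was 6.88-fold (log2 change 2.78, SE 0.18, the largest SE of the 56). On 11762641_x_at the values went from 3.43, 3.47 and 3.54 to 6.25, 6.38 and 6.52, at least 1.86-fold. 11763246_x_at rose by 1.26, and 11758821_x_at and 11761639_x_at by 0.39 and 0.25 at or below the nonspecific level. The other 5 changed by -0.02 to 0.15 and were not called. The changes of 7 probe sets at or below that level differed from that of 11746804_x_at by -2.39 to -2.80, without overlap (exact permutation p = 0.1 each).

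**Figure D3:**
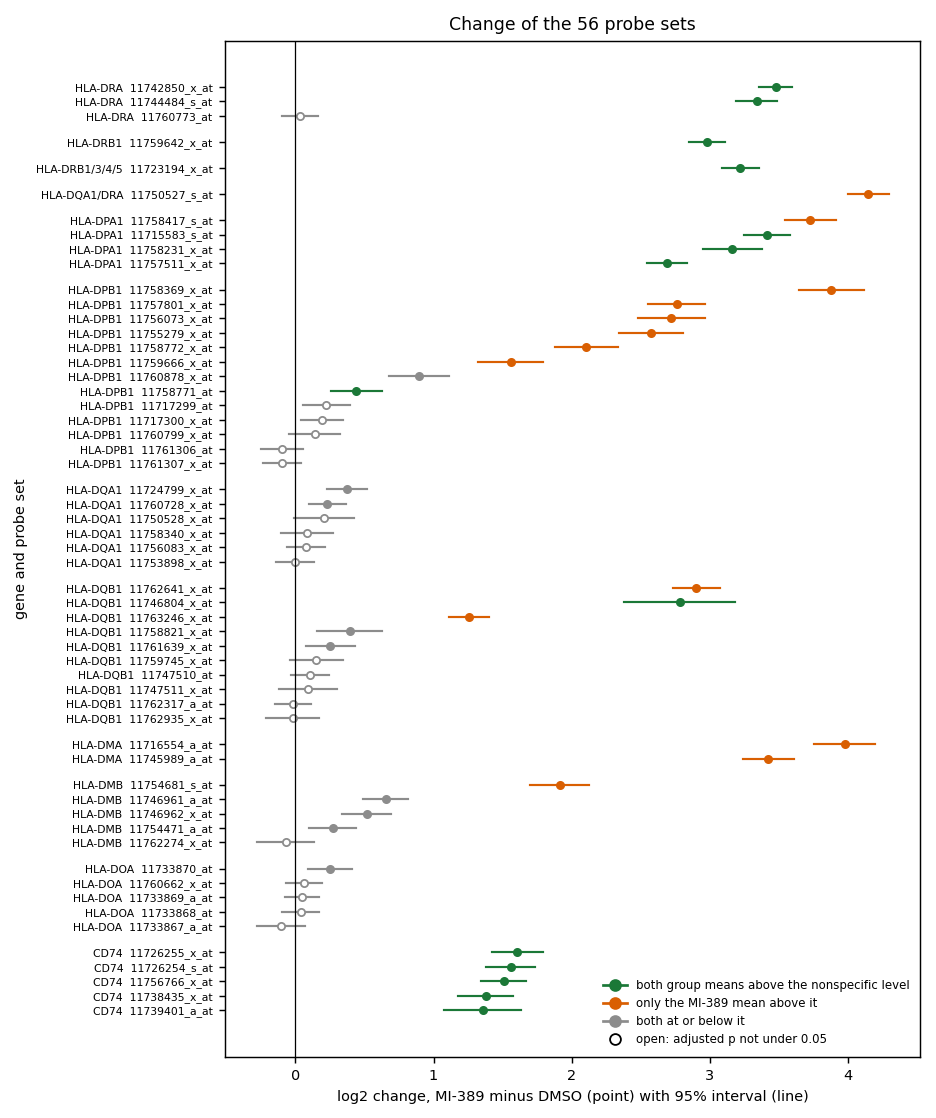
Log2 change with MI-389 (horizontal axis, point) and its 95% interval from limma (line) for the 56 probe sets, grouped by gene on the vertical axis; filled points have an adjusted p under 0.05 and colours give the position of the group means relative to the nonspecific level. Points of CD74 run from 1.36 to 1.61 and those of HLA-DPA1 from 2.69 to 3.73, while those of HLA-DPB1 and HLA-DQB1 spread from near 0 to 3.88 and 2.90.

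HLA-DM, which releases the invariant chain fragment and edits peptides, rose on both chains. HLA-DMA (chr6:32948618-32953097) read 4.59, 4.55 and 4.41 with DMSO and 8.56, 8.65 and 8.26 with MI-389 on 11716554_a_at, at least 8.04-fold higher (log2 change 3.98, SE 0.10). On 11745989_a_at the values were 5.21, 4.95 and 5.19 against 8.52, 8.65 and 8.46, at least 8.33-fold higher. HLA-DMB (chr6:32934636-32941028), the beta chain, passed the nonspecific level on 1 of its 5 probe sets, 11754681_s_at. There it rose from 4.54, 4.94 and 4.74 to 6.70, 6.55 and 6.70, at least 2.24-fold (log2 change 1.91, SE 0.10). Another 3 rose by 0.65, 0.52 and 0.27 below that level, and 11762274_x_at changed by -0.07 and was not called. Whether the 2 chains differ in their change was not tested.

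HLA-DOA (chr6:33004182-33009591), the alpha chain of the molecule that restrains HLA-DM, stayed at or below the nonspecific level on all 5 probe sets. Their 30 values ran from 3.03 to 4.46. On 11733867_a_at, with the highest mean, the arrays read 4.41, 4.37 and 4.43 with DMSO and 4.28, 4.15 and 4.46 with MI-389, with overlap (change -0.10, 95% interval -0.28 to 0.07). 11733870_at rose by 0.25 (SE 0.07, adjusted p = 0.0222), and the other 3 changed by 0.04 to 0.06. HLA-DOB, its partner chain, was lower by 0.23 on 11724163_at, also at or below that level (SE 0.07, adjusted p = 0.0272). A level of HLA-DO transcripts could thus not be told from background in either group.

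CD74 (chr5:150401639-150412910), the invariant chain, rose on all 5 probe sets, by 1.36 to 1.61 on the log2 scale, or 2.56-fold to 3.05-fold. On 11726255_x_at the DMSO arrays read 8.99, 8.65 and 8.77 and the MI-389 arrays 10.40, 10.43 and 10.40 (log2 change 1.61, SE 0.08, limma adjusted p = 2.62e-07). On 11739401_a_at they read 7.28, 6.70 and 6.81 against 8.30, 8.25 and 8.31. DMSO replicate 1 was the highest of the DMSO arrays on all 5 CD74 probe sets, and all DMSO values lay below all MI-389 values. Every DMSO value of CD74 and of the 2 bright HLA-DRA probe sets exceeded the nonspecific level, so both transcripts were above that level in cultures without MI-389.

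The probe set suffix states how specific the probes are by design. Of the 56, 35 carried _x_at, whose probes may match other transcripts, 6 carried _s_at, shared by several transcripts or genes, 8 carried _a_at, shared by transcripts of 1 gene, and 7 carried _at alone. Of these, 23, 6, 5 and 2 rose. On the whole array 14.7%, 19.0%, 13.8% and 11.0% of the probe sets with these suffixes rose. The 2 plain _at probe sets that rose were 11758771_at of HLA-DPB1 and 11733870_at of HLA-DOA. Of the 7 plain _at probe sets, only 11758771_at had group means above the nonspecific level. The large rises above thus rest on probe sets with a suffix, among them the _a_at probe sets of HLA-DMA (3.98 and 3.43). The probe sequences were not used here.

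Other genes of the pathway moved in both directions. Of 41 listed genes, 36 had a probe set of their own, each represented by the one with the highest mean, and 14 rose and 8 fell. Without DMSO replicate 1, DMSO replicate 3 or MI-389 replicate 1, the number that fell was 5. Over all 18239 genes so represented, 17.2% rose and 15.0% fell. The median change of the list was 0.13, against 0.018 for all genes. With arrays centred on the spike-ins the list's counts turned to 10 higher and 17 lower, where 2901 of all probe sets were higher and 30190 lower.

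Of 8 transcription factors of class II genes, 1 rose and 3 fell. CIITA read 4.61, 4.83 and 4.92 with DMSO and 5.23, 4.87 and 4.64 with MI-389 on its probe set with the highest mean, with overlapping groups below the nonspecific level (change 0.13, 95% interval -0.18 to 0.43, adjusted p = 0.575). Of its 4 probe sets, 11743900_at rose by 0.51 (SE 0.09), from 3.74, 3.73 and 3.89 to 4.21, 4.18 and 4.50, also below that level. RFX5, the large DNA-binding subunit of the RFX complex, changed by 0.06 (interval -0.08 to 0.19), and RFXANK, another RFX subunit, fell by 0.70 (SE 0.07). Among the genes upstream of CIITA in interferon signalling, IRF1, a transcription factor, and IFNGR2, a receptor chain, fell by 0.62 and 0.49, and 3 of the 5 measured rose.

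In the processing steps 6 of 11 genes rose and 1 fell. CST3, the secreted cathepsin inhibitor cystatin C, rose 4.28-fold, from 9.49, 9.39 and 9.45 to 11.61, 11.60 and 11.41. IFI30, a lysosomal thiol reductase that opens disulfides of antigens, rose 2.27-fold (log2 change 1.18, SE 0.09), and CTSS, the protease that trims the invariant chain, 1.55-fold (0.63, SE 0.06). Of the surface partners of CD74, the chemokine receptor CXCR4 rose 4.17-fold and the adhesion receptor CD44 fell by 0.75 (SE 0.06). CD86, a costimulatory ligand, rose at least 3.04-fold, from 5.31, 5.52 and 5.40 to 6.95, 7.17 and 7.19. CD40 and CD80 stayed below the nonspecific level, with changes of -0.05 and -0.06.

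**Figure D4:**
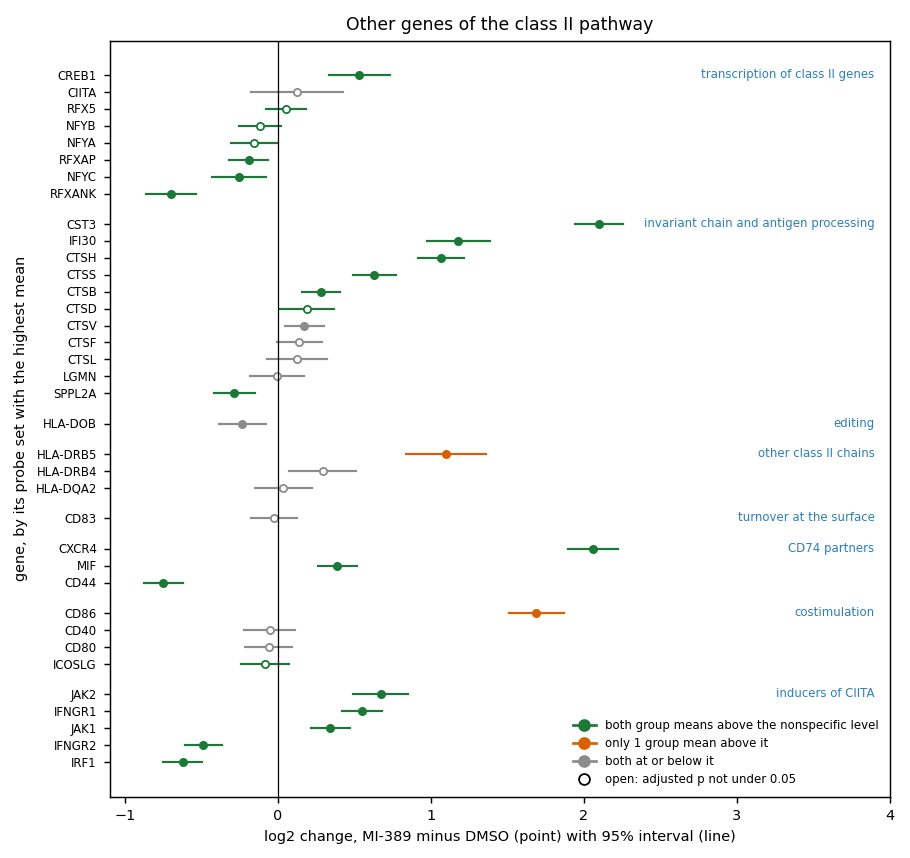
Log2 change with MI-389 (horizontal axis, point) and its 95% interval from limma (line) for 36 other genes of the class II pathway, grouped by role on the vertical axis; filled points have an adjusted p under 0.05. CST3, CXCR4 and CD86 lie furthest right, at 2.10, 2.06 and 1.69, and CD44 and RFXANK furthest left, at -0.75 and -0.70.

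Markers were compared with the labelled cell type. Among 7 measured myeloid genes, 4 exceeded the nonspecific level in both groups, and 3, SPI1, ANPEP and MPO, did so in neither. At that low level SPI1 fell by 0.66 and MPO rose by 0.25. A marker at or below the level is therefore not read as absent. Among the 4, lysozyme (LYZ) rose by 2.06 and the receptor CSF1R by 1.65, while the receptor FLT3 fell by 1.41. Of the 7, 4 rose and 2 fell, with a mean level of 7.42 to 7.64 on the DMSO arrays and 7.88 to 7.95 on the MI-389 arrays. Over all genes, each by its probe set with the highest mean, 17.2% rose and 15.0% fell. Of other cell types that carry class II, 5 of 6 B cell markers and 7 of 8 dendritic cell markers were at or below the nonspecific level in both groups. The exceptions were PAX5, which changed by 0.09 (adjusted p = 0.273), and CLEC10A, which fell. At or below that level, the B cell markers BLNK and CD79A rose by 0.30 and fell by 0.27. The dendritic cell marker FCER1A rose by 0.31 there. Mean levels were 4.72 to 4.73 with DMSO and 4.68 to 4.76 with MI-389 for the B cell list, and 4.08 to 4.08 and 3.97 to 4.10 for the dendritic cell list. Of 6 T and NK cell markers, 2 rose and 1 fell, with mean levels of 4.85 to 4.91 and 5.01 to 5.06. CD3D and NKG7 were those that rose, CD3D at or below the nonspecific level in both groups and NKG7 above it. NCAM1, above it in both groups, fell.

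The genes whose 6-array profile was most like that of HLA-DRA 11744484_s_at were LYZ, CXCL8, NAIP, TENT5A and DHRS9, by the root mean square distance of profiles centred on their own mean. The distances were 0.091 to 0.14 on the log2 scale over 6 arrays, among 45095 probe sets of other genes, and the changes 3.16 to 3.53. For CD74 11726255_x_at they were TRIM14, MLC1, ALDH4A1, PIK3CG and PALD1, with distances of 0.029 to 0.068 and changes of 1.54 to 1.72. With 2 groups of arrays such likeness mostly reflects an equal change.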

How the data were processed

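RNA of 3 DMSO and 3 MI-389 cultures of MV4;11 cells was hybridised to Affymetrix arrays. The authors deposited log2 values per probe set, made with RMA and limma, per the submitters' processing notes. No version or setting was stated. Tests covered all but the 93 control probe sets. Symbols came from the platform annotation, updated through Entrez IDs to RefSeq GRCh38.p14 for probe sets of 1 gene. Of 49293 probe sets, 45311 had 1 symbol, 1269 several and 2713 none. MI-389 minus DMSO was fitted with limma 3.58.1 (R 4.3.3, lmFit and eBayes, no covariates) over all probe sets, with Benjamini-Hochberg adjustment and a threshold of 0.05. Changes between probe sets of 1 gene were compared by exact two-sided permutation of arrays over 44 comparisons, where the lowest adjusted p was 0.133. On simulated data for this comparison with 49293 probe sets, 4% of 50 changes of 0.25, 74% of 0.5, 92% of 1 and 100% of 2 (log2) were called, with 15 false calls. In the simulation 49093 probe sets were unchanged, while 13800 were called in the data. Its adjusted threshold was therefore stricter, and these shares do not carry over to the data. Sequencing depth does not apply to arrays, and their number limits the precision. Named were all members, of the other pathway genes the 4 largest rises and falls, CIITA, RFX5, HLA-DOB, CTSS and IFI30, up to 3 markers of a list, and the 5 genes most like HLA-DRA and CD74. Other genes named, among them 3 further myeloid markers, were chosen after their values were seen. The members and lists were chosen with earlier results of these data known. The 5 listed pathway genes and 2 markers without a probe set of their own were not analysed here. Alternatives were other scalings, a filter on dim probe sets, the replicate number as a block, variance models, array weights, each array left out, a threshold of 0.01, and treat against a fold of 1.2.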

Additional observations from a re-analysis of the deposited data

How the results depend on the processing

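The count of 36 member probe sets that rose was 32 to 36 with each array left out in turn, and 31 of the 36 were called higher in all of these. Among the 31 were the 27 with a mean above the nonspecific level, 13 of which passed it with MI-389 alone and so had to be higher there. Over the same omissions the counts were 11323 to 13594 for all probe sets, 18 to 20 for the pathway list (5 to 7 of them lower, against 8) and 34 to 38 of 44 pairs of probe sets of 1 gene whose changes did not overlap between arrays, against 33 with all arrays, and the members' median change was 0.56 to 0.63. With arrays centred on the spike-ins, 33091 probe sets were called (2901 higher, 30190 lower), the members' median was 0.33, and the sign turned for 15 members and 7 pathway genes. Those called in at least 1 of both fits were HLA-DOA 11733868_at (-0.21), 11733869_a_at (-0.20) and 11733870_at (-0.0021), HLA-DQA1 11760728_x_at (-0.022), HLA-DRA 11760773_at (-0.22), RFX5 (-0.20), CTSV (-0.080) and HLA-DQA2 (-0.22). The centring lowers the MI-389 minus DMSO change of every probe set by the same 0.25. The members' median was 1.76 over the 38 left after the filter on dim probe sets, and 0.11 over the 7 without a suffix, of which 2 were called. These medians describe different subsets of the members, and why they moved in opposite directions was not tested. Against a fold of 1.2, 5346 probe sets, 29 members and 13 pathway genes passed. The replicate number as a block gave 36 members and 12781 probe sets. The labels name no shared day. The deviations of equally numbered arrays correlated at -0.18, 0.026 and -0.11, and those of unequally numbered arrays at -0.062 to 0.19. With 3 arrays per group, this cannot decide whether the numbers pair the samples. Pathway genes that fell numbered 5 instead of 8 under the block, where RFXAP, NFYC and HLA-DOB lost the call, and 5 at a threshold of 0.01. The other alternatives kept the total counts of probe sets, members and pathway genes within 1.5 times. RMA values near the nonspecific level limit what can be said of HLA-DQA1 and HLA-DOA.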
